A study of Homo sapiens with 21 samples.

Results

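Chromatin accessibility was compared between SK-N-BE(2) neuroblastoma cells carrying either of 2 short hairpin RNAs (shRNAs) against the same gene, ARID1A. The members were the 3 libraries of shARID1A.2 and the 3 libraries of shARID1A.4, 6 of the 21 libraries of the series, joined site by site on the identifier of each accessible site. Of 367900 sites in the consensus set, 357029 passed the filter on low counts and were tested for the difference shARID1A.2 minus shARID1A.4. The assay was ATAC-seq, in which Tn5 transposase cuts open DNA so that reads accumulate over accessible sites, and a site was measured 72 h after lentiviral transduction. The other groups, of 3 libraries each, were Control (cells with a non-silencing shRNA), shARID1B.2 and shARID1B.3 (shRNAs against ARID1B), shARID1A/B.2.3 (ARID1A hairpin 2 with ARID1B hairpin 3) and shARID1A/B.4.2 (ARID1A hairpin 4 with ARID1B hairpin 2). All groups, Control included, were transduced cells of this single line, described as biological triplicates, and the cells were bulk populations, so a site open in fewer cells and a site less open in each cell cannot be told apart. A site carries the name of the closest start site, and regulation of that gene by the site was not measured.

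ARID1A is the large AT-rich DNA-binding subunit of the canonical BAF complex, an ATP-dependent remodeller that slides and ejects nucleosomes and keeps enhancers accessible. ARID1B takes its place in other copies of the complex, and a given BAF complex holds only one of these paralogues. An shRNA is processed by DICER, and in some designs first by DROSHA, into a short guide that Argonaute proteins pair with a messenger RNA. Hairpins with different guides against the same messenger share the intended target and differ in how strongly they silence it and in which other transcripts they can pair with through the seed of the guide. The amount of ARID1A left by each hairpin was not measured by these libraries, so unequal silencing and effects on other transcripts cannot be told apart here. Adrenergic neuroblastoma cells are held in their state by HAND2, GATA3, ISL1 and related factors that bind homeobox, E-box and GATA elements in distal enhancers, which are also the elements where BAF is known to act.

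Reads in sites numbered 21733882 to 23223780 in the shARID1A.2 libraries and 16140029 to 23110659 in the shARID1A.4 libraries, against 16140029 to 44472230 in the series. The share of reads in promoter sites overlapped between the hairpins, at 21.7% to 24.0% and 22.9% to 24.1%, and was 20.0% to 20.6% in Control. Accessibility is given as CPM, reads per 1000000 reads in sites after TMM scaling, and it is not corrected for the length of a site. The sites closest to the start sites of adrenergic markers were open in all 9 libraries of Control and the single ARID1A hairpins, with HAND2 at 40.5 to 47.0 CPM, ISL1 at 20.9 to 24.8 and GATA3 at 14.1 to 17.6. DBH stood at 6.78 to 11.4 CPM. Sites of the mesenchymal genes VIM (46.5 to 65.0 CPM) and FN1 (31.2 to 39.1) were open too. The liver gene ALB stood at 0.0481 to 0.447 CPM, the blood marker PTPRC at 0.786 to 1.48, and SOX10, the defining Schwann lineage factor, had no tested site, whereas a site of APOA1 was open.

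The sequences below carry letter patterns that were more frequent at the sites lower in shARID1A.2 than at those higher in shARID1A.2. Most lower sites held neither pattern, and some higher sites held them. The homeobox core was present at 17.5% of the lower and 9.24% of the higher sites, and the homeobox pair at 4.38% and 1.63%. They are read from the plus strand of GRCh38, with the matched letters in capitals. The first is the homeobox core TAATTA (chr4:111296584-111296679, log2 difference -2.96). It lies in the site with the largest fall in shARID1A.2 among called sites with a mean of at least 1 CPM. The next ones are homeobox pairs, TAAT and ATTA separated by 3 bases, the arrangement bound by PHOX2 proteins. These pairs lay at chr13:104164415-104164515 (-2.65), chr12:71481965-71482065 (-1.29), chr6:50891177-50891277 (-0.85) and chr20:20498467-20498567 (-0.79). The last lies 130472 bases from the start of INSM1, in another site than the one whose values are given for that gene.
MIR297 site: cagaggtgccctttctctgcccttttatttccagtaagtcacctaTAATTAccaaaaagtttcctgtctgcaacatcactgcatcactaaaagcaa
SLC10A2 site: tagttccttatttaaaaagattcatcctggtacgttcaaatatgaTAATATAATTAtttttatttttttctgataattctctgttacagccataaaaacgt
LGR5 site: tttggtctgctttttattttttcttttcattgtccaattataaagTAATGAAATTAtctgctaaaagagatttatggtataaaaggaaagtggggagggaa
TFAP2B site: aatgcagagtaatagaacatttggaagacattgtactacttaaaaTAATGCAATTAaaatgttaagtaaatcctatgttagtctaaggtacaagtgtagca
INSM1 site: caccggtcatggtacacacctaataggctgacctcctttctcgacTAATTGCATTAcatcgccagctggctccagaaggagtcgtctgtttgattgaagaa

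Sites higher in shARID1A.2 more often held the E-box CATCTG, the form bound by HAND2 and TWIST1 with E proteins. Examples lay at chr13:39154000-39154095 (log2 difference 2.20), chr12:13537810-13537905 (1.53) and chr14:75434601-75434696 (1.33).
NHLRC3 site: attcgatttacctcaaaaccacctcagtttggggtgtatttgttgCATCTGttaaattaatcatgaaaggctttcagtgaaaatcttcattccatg
GRIN2B site: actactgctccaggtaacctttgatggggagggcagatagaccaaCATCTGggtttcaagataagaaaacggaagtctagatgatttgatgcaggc
JDP2 site: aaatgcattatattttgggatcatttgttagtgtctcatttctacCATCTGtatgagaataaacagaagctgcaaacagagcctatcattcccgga

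The hairpins differed at 9188 sites, 2.57% of the 357029 tested, at a false discovery rate (FDR) under 0.01 in the edgeR quasi-likelihood test. Accessibility was lower in shARID1A.2 at 6557 of them (1.84% of tested sites) and higher at 2631 (0.737%). Median log2 differences were -0.78 and 0.86 in these sets against 0.00 over all tested sites, and the difference reached 1 on the log2 scale at 1887 of the lower sites (28.8%) and 901 of the higher sites (34.2%). The 3 libraries of each hairpin did not overlap at 99.7% of the sites called, against 20.3% of all tested sites, 11.0% in the lower and 9.25% in the higher direction. The called sites lay closest to 4232 and 1950 different genes of the 26740 with a tested site. The predominance of lower sites depended on scaling. With TMM computed on promoter sites alone, which raised the median of all sites to 0.11, 4062 sites were lower and 3920 higher, so that lower sites made up 50.9% of calls instead of 71.4%. Scaling to total counts gave 5176 lower and 3925 higher, and offsets that followed mean abundance gave 5422 and 3802, and no site called here was called in the opposite direction under any setting. Lower sites numbered 3952 without shARID1A.4 replicate 1 and 4084 without shARID1A.2 replicate 2, and higher sites numbered 1741 without shARID1A.4 replicate 1 and 1631 without shARID1A.4 replicate 2.

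**Figure D1:**
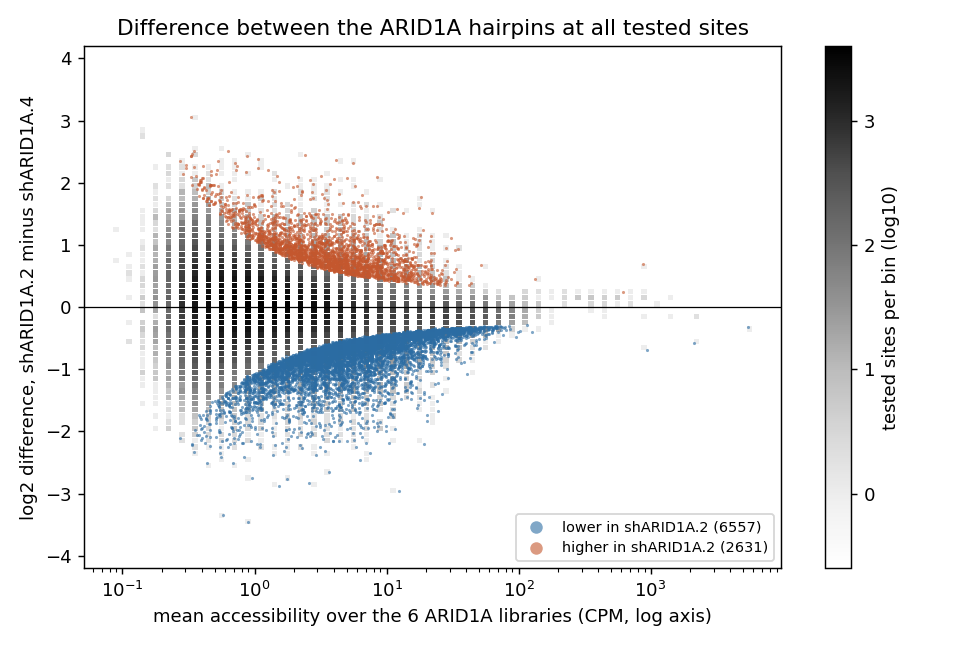
Log2 difference shARID1A.2 minus shARID1A.4 (vertical axis) against mean accessibility over the 6 ARID1A libraries in CPM (horizontal log axis). Grey squares are bins of tested sites shaded by the log10 number of sites, blue points the 6557 sites lower in shARID1A.2 and orange points the 2631 sites higher, and calls become rare at the left, where the lowest quartile of sites by mean CPM held 0.0728% lower and 0.084% higher calls.

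The sites with the largest differences lay mostly in intergenic DNA. The site with the largest fall, chr4:111296160-111297265, lies 436068 bases upstream of MIR297. It held 2.67, 2.11 and 3.77 CPM in shARID1A.2, 21.8, 23.0 and 21.6 CPM in shARID1A.4, and 16.1, 18.1 and 14.5 CPM in Control. All shARID1A.2 libraries thus lay far below both other groups, and the log2 difference between the hairpins was -2.96 ± 0.13 (SE, edgeR FDR 3.97e-33). A site at chr13:104163743-104165102, nearest to the bile acid transporter gene SLC10A2 at a distance of 1097576 bases, held 0.951, 1.02 and 1.03 CPM in shARID1A.2 and 6.45, 5.73 and 6.76 CPM in shARID1A.4. Control held 1.68, 1.77 and 2.61 CPM there, between the hairpins, and the difference was -2.65 ± 0.18 (edgeR FDR 6.47e-21). The other large falls were nearest to PDZRN4 (-2.88), CRISPLD1 (-2.82), the homeobox gene HHEX (-2.76), LOC102724139 (-2.46), LOC102723844 (-2.38) and BRINP3 (-2.38).

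Among the rises, a site in intron 3 of DAPP1 (chr4:99844998-99845650), a gene for a B cell signalling adaptor, held 4.26, 4.02 and 3.95 CPM in shARID1A.2 against 0.824, 0.693 and 0.689 CPM in shARID1A.4. Control, at 1.11, 1.44 and 1.04 CPM, lay near shARID1A.4, and the hairpins differed by 2.45 ± 0.21 (SE, edgeR FDR 1.18e-15). The reverse held at a site 111196 bases upstream of the ciliogenesis gene INTU (chr4:127521369-127522103). It held 9.19, 8.85 and 9.88 CPM in shARID1A.2, 1.97, 2.26 and 1.19 CPM in shARID1A.4, and 8.76, 8.79 and 8.22 CPM in Control. Here shARID1A.2 lay just above Control while shARID1A.4 was far below, with a difference of 2.32 ± 0.16 (edgeR FDR 1.87e-21). A site in intron 7 of the carboxypeptidase M gene, 48535 bases from the start of MDM2, held 5.21, 4.67 and 5.57 CPM in shARID1A.2, 1.33, 1.06 and 1.19 in shARID1A.4 and 3.56, 3.53 and 3.29 in Control. The remaining large rises were nearest to DAOA (2.39), MIR548X2 (2.37), LOC101929453 (2.24), NHLRC3 (2.20) and LOC101926956 (2.11).

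**Figure D2:**
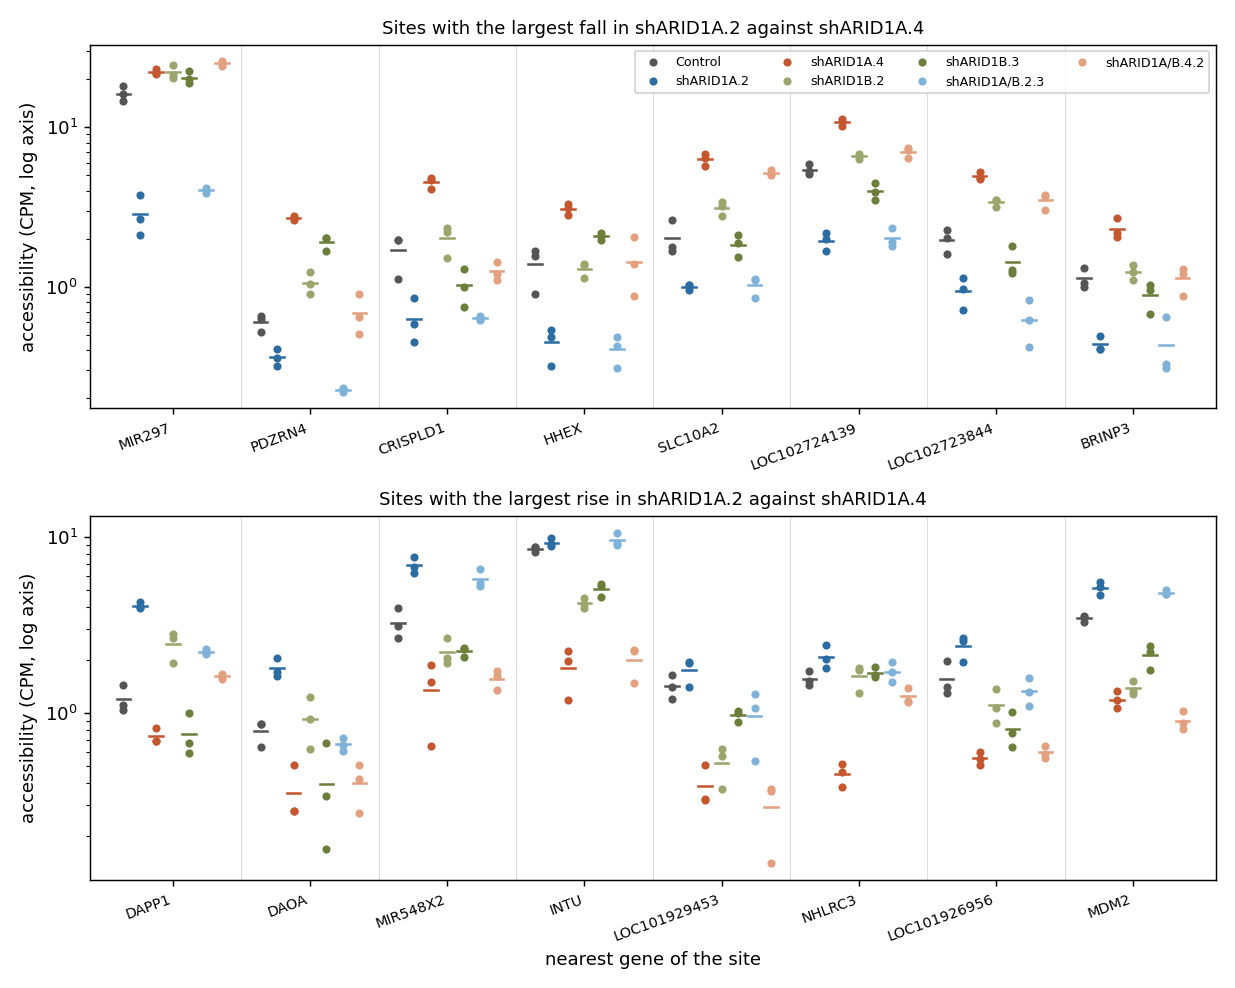
Accessibility in CPM (vertical log axis) at the 8 sites with the largest fall (top) and the 8 with the largest rise (bottom) in shARID1A.2 against shARID1A.4, named by nearest gene. Points are libraries and short lines the means of 3, coloured by group, and at MIR297 the combination with ARID1A hairpin 2 (3.87 to 4.18 CPM) sits with shARID1A.2 while the combination with hairpin 4 (24.2 to 25.9 CPM) sits with shARID1A.4.

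Levels in Control were placed differently in the sets of called sites. At the 6557 lower sites the median level was 5.80 CPM in Control, 3.75 in shARID1A.2 and 6.68 in shARID1A.4, and the Control mean lay between those of the hairpins at 68.3% of sites, against 30.4% of all tested sites. Against Control, the median log2 change at these sites was -0.53 for shARID1A.2, with 3045 closed and 12 opened, and 0.29 for shARID1A.4, with 228 closed and 1888 opened. At the 2631 higher sites the median level was 4.98 CPM in Control, 4.78 in shARID1A.2 and 2.65 in shARID1A.4, and the Control mean lay above both hairpins at 50.3% of sites and between them at 46.3%. There the median change against Control was 0.00 for shARID1A.2, with 443 closed and 304 opened, and -0.90 for shARID1A.4, with 1825 closed and 6 opened. Mean accessibility in shARID1A.2 was nearer to Control than that in shARID1A.4 at 82.1% of the higher sites and 40.2% of the lower sites (53.3% of all). Over all tested sites, shARID1A.2 closed 16217 (4.54%) and opened 2976 (0.834%), and shARID1A.4 closed 14891 (4.17%) and opened 8128 (2.28%). These comparisons share the Control libraries, and the counts at called sites use the libraries that made the calls, so they describe the sites and test nothing.

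The hairpins could be compared again in cells that also carried an ARID1B hairpin, without any of the 6 libraries above, as the difference shARID1A/B.2.3 minus shARID1A/B.4.2 less the difference shARID1B.3 minus shARID1B.2. This estimate assumes that log2 effects of the ARID1A and ARID1B hairpins add. Differences given here as those in ARID1B-silenced cells are this estimate, and the direct difference between the combinations can be smaller or larger. By itself it called 2167 sites lower (0.607%) and 1633 higher (0.457%) with hairpin 2. The combinations themselves differed, before that subtraction, at 13521 sites lower in shARID1A/B.2.3 (3.79%) and 5113 higher (1.43%), and the ARID1B hairpins at 15173 lower in shARID1B.3 (4.25%) and 10572 higher (2.96%). At the 6557 sites lower in shARID1A.2 the median of the estimate was -0.42, with 86.6% of values below 0, and 1020 sites were called lower and 9 higher. At the 2631 higher sites its median was 0.61, with 91.9% of values above 0, and 678 were called higher and 1 lower. The median over all tested sites was 0.01. At the lower sites most of this came from the combinations, whose own difference had a median of -0.47 (3032 called lower and 129 higher) against -0.05 between the ARID1B hairpins. At the higher sites the combinations differed by a median of 0.22 (648 called higher and 154 lower) and the ARID1B hairpins by -0.40 (1006 lower and 175 higher), so there the subtraction supplied the larger portion. The shared calls made up 15.6% of the lower sites and 47.1% of the sites lower in ARID1B-silenced cells, and 25.8% and 41.5% for the higher direction. Across the 9188 called sites the estimates had a Pearson r of 0.755, and across all 357029 sites r was 0.237, as a description over sites that share libraries and neighbourhoods. Counts in the second comparison were sensitive to scaling, with 473 lower and 5748 higher under promoter-based TMM, under which the medians at the called sites kept their signs at -0.18 and 0.78. Lower calls ranged from 1183 without shARID1B.2 replicate 3 to 3302 without shARID1B.3 replicate 3, and also moved by over 1.5 times without shARID1B.2 replicate 1 (1249), shARID1B.3 replicate 2 (1316), shARID1A/B.2.3 replicate 1 (3278) and shARID1A/B.4.2 replicates 1 (1412) and 3 (1226). Higher calls fell to between 1028 and 1072 without shARID1B.2 replicate 3, shARID1B.3 replicates 1 or 2, or any shARID1A/B.4.2 replicate.

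**Figure D3:**
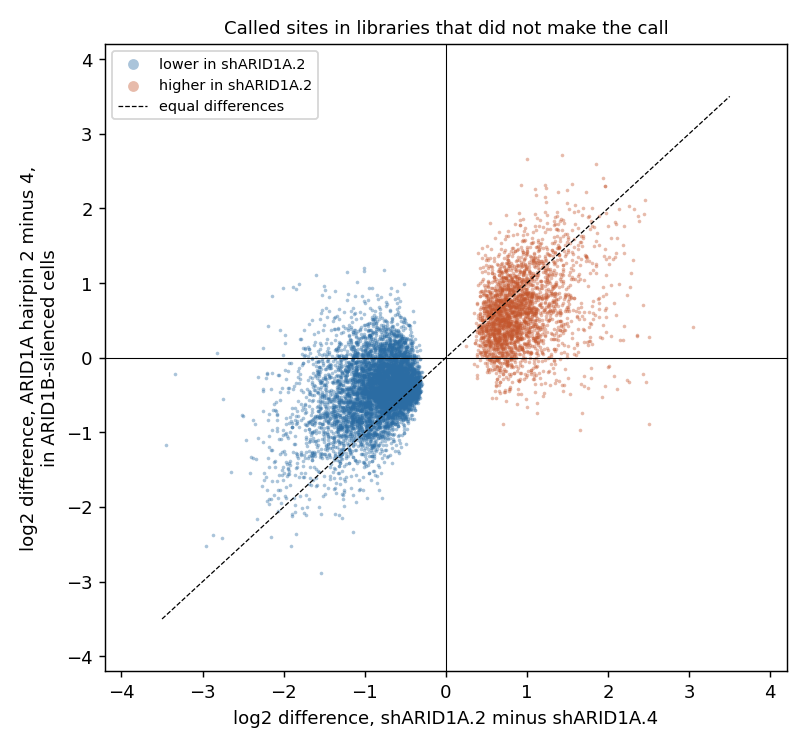
Log2 difference between ARID1A hairpins 2 and 4 in ARID1B-silenced cells (vertical axis) against the difference between the single hairpins (horizontal axis) at the 9188 called sites, blue where lower and orange where higher in shARID1A.2. The dashed line marks equal differences, and 86.6% of blue points lie below 0 and 91.9% of orange points above 0.

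The leading sites mostly kept their direction with the ARID1B hairpins. The MIR297 site held 4.01, 4.18 and 3.87 CPM in shARID1A/B.2.3 and 25.2, 25.9 and 24.2 CPM in shARID1A/B.4.2, and its difference in ARID1B-silenced cells was -2.53 (edgeR FDR 2.91e-23). That difference was 1.99 at the INTU site (edgeR FDR 2.31e-11), 2.12 at the DAPP1 site (8.14e-08) and 1.79 at the MDM2 site (6.84e-06). It was near 0 at the CRISPLD1 site (0.07, FDR 0.947) and did not pass the threshold at the BRINP3 (-0.84, FDR 0.22), LOC101929453 (0.84, FDR 0.374), NHLRC3 (0.42, FDR 0.473) and DAOA (1.83, FDR 0.0149) sites. Tested directly, the hairpin difference alone departed from that in ARID1B-silenced cells at 361 sites (0.101%), 320 of them lower (0.0896%) and 41 higher (0.0115%). Of the 320, 196 were among the sites lower in shARID1A.2. The single ARID1A libraries enter both this comparison and those calls, so the overlap describes the sites and tests nothing.

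A further question was whether the hairpins differed at the sites that respond to combined silencing of ARID1A and ARID1B. The mean of the combinations closed 36610 sites (10.3%) and opened 12247 (3.43%) against Control. At the closed sites both hairpins alone were below Control by a like amount, with median log2 changes of -0.58 for shARID1A.2 and -0.56 for shARID1A.4, and the median hairpin difference was -0.02 (0.05 with total-count scaling and 0.08 with promoter-based TMM). Even so, 3099 of the closed sites were lower (8.46%) and 1746 higher (4.77%) in shARID1A.2, larger shares than at the 308172 sites not called for the combinations (0.968% and 0.256%), and they made up 47.3% of all lower and 66.4% of all higher sites. At the opened sites the median changes were 0.31 and 0.40, and 474 sites were lower (3.87%) and 95 higher (0.776%) in shARID1A.2. The comparisons with Control share its libraries, and the combinations carry the same ARID1A hairpins. The sites not called for the combinations were also not matched for accessibility, on which calls depend. The least accessible quartile of sites held 0.0728% lower and 0.084% higher calls, and the most accessible 6.04% and 2.12%. How much of the larger shares at closed sites came from accessibility was not tested.

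Called sites were more accessible, longer and poorer in GC than the tested sites in general. Medians over the lower, the higher and all tested sites were 5.25, 3.73 and 1.01 CPM, 1436, 1222 and 788 bases, and 41.3%, 43.3% and 46.9% GC. The quartile of sites with the lowest GC held 4.04% lower and 1.29% higher calls, against 1.63% and 0.259% in the GC-richest quartile, and the most accessible quartile held 6.04% and 2.12%. Introns held 52.9% of the lower sites and 38.5% of the higher sites (43.1% of all), whereas intergenic DNA held 35.0% and 56.6% (48.7%). Promoter sites made up 6.33% of the lower sites and 1.71% of the higher sites (3.45%). Of 6557 lower sites, 2988 (45.6%) had another lower site within 50 kb, and of 2631 higher sites 742 (28.2%) had another higher site. A larger set has closer neighbours by its size alone, and the share for tested sites drawn in like number was not computed. These shares therefore do not compare the clustering of the lower and higher sites.

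Chromosome 16 stood lower in shARID1A.2 than the tested sites in general. Of its 7631 tested sites 303 were lower (3.97%) and 46 higher (0.603%), against 1.84% and 0.737% of all tested sites. Its median log2 difference was -0.19, or -0.15 with offsets that follow GC content. Chromosome 16 was divided into windows because its median was the lowest of any chromosome. All 10 of its windows of 10 Mb had a negative median, from -0.05 over 18 sites to -0.29 over 781 sites. The windows hold the values that picked the chromosome, so they describe it and test nothing. In an alternative added after seeing the data, promoter-based TMM gave a median of -0.08 on chromosome 16 against 0.11 over all sites, with 8 of the 10 windows negative and 169 lower and 69 higher sites. The chromosome's median against Control was -0.05 for shARID1A.2 and 0.15 for shARID1A.4, and in ARID1B-silenced cells the hairpin difference was -0.21. Its sites had a median GC of 52.8%, and chromosome 19, with 59.4% GC, had a median difference of -0.15 that shrank to -0.07 with the GC offsets. Chromosomes 18 (4.20%) and X (3.59%) also had large shares of lower sites, and chromosome 13 had the largest share of higher sites (1.92%).

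Letter patterns of 18 transcription factor motifs were searched on both strands in the central 300 bases of each site. The homeobox core TAATTA was present at 17.5% of the lower sites, 9.24% of the higher sites and 7.87% of all sites, and the PHOX2 homeobox pair at 4.38%, 1.63% and 1.09%. A pair can contain the core, as the SLC10A2 sequence shows. Since the lower sites are AT-rich, the shares were also taken in the quartile of sites poorest in GC, where the core stood at 25.2%, 12.4% and 16.3% and the pair at 6.66%, 2.08% and 2.61%. The E-box CATCTG showed the opposite order, with 21.0% of the lower sites, 35.0% of the higher sites and 23.0% of all sites, and 20.5%, 33.0% and 21.7% in the GC-poorest quartile. At the sites closed by the combinations it stood at 33.0%, close to its share at the higher sites, and the homeobox core stood at 14.1%. These sets overlap, since 66.4% of the higher and 47.3% of the lower sites were themselves closed by the combinations. The likeness is thus partly built in. The symmetric E-box CAGCTG followed the same order as CATCTG (13.1% of the lower, 20.3% of the higher and 17.6% of all sites). The GATA pattern AGATAA was more frequent than in all sites (17.0%) in both directions, at 27.1% and 25.9%, but in the GC-poorest quartile it stood at 38.1% of the lower, 30.4% of the higher and 28.5% of all sites. AP-1 (TGANTCA) differed little, at 12.9%, 14.5% and 10.9%. The SP/KLF pattern GGGCGG was present at 12.7%, 4.07% and 9.06%, TEAD (CATTCC) at 13.9%, 17.7% and 16.8%, SOX (ACAATG) at 16.8%, 17.7% and 14.8%, and the CTCF core CCCTC at 47.2%, 48.5% and 55.0%. A match describes the sequence of a site and says nothing of binding.

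**Figure D4:**
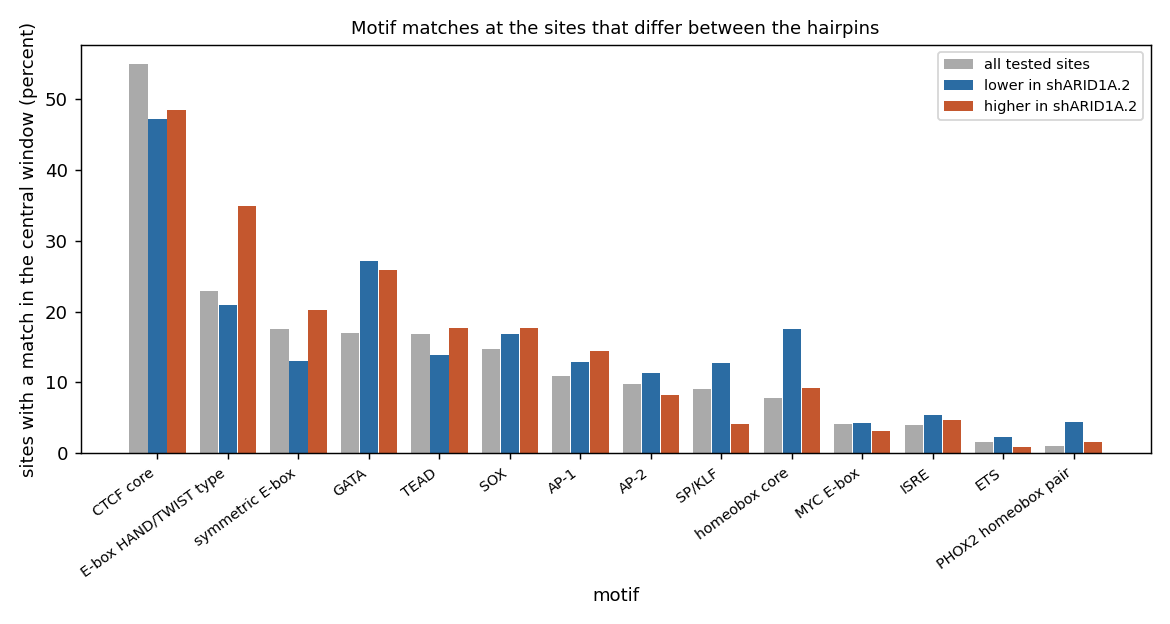
Percentage of sites with at least 1 motif match in the central 300 bases (vertical axis) for motifs present at 1% or more of tested sites, in all tested sites (grey), sites lower in shARID1A.2 (blue) and sites higher in shARID1A.2 (orange). The homeobox core and PHOX2 pair are highest at the lower sites (17.5% and 4.38%), and the E-box CATCTG is highest at the higher sites (35.0%).

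Sites near the regulators of the adrenergic state were lower in shARID1A.2 at 30 of 515 tested sites (5.83%) and higher at 6 (1.17%), against 1.84% and 0.737% of all tested sites. Their median difference was -0.12 against 0.00, and -0.17 in ARID1B-silenced cells, where 11 of the 30 lower sites and 1 of the 6 higher sites were called in the same direction. Lower sites lay near 11 of the 22 genes on the list, among them DACH1, ELAVL4, EYA1, GATA3, INSM1, KLF7, LMO1, SATB1, SOX11 and TFAP2B. The count of lower sites ranged from 21 to 25 as each of the 6 libraries was left out, and was 19 lower and 9 higher under promoter-based TMM.

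TFAP2B, a neural crest transcription factor, had the most called sites of the list, with 8 of 69 lower and 1 higher. Its promoter (chr6:50821425-50822365) held 7.79, 8.20 and 7.68 CPM in shARID1A.2, 14.6, 14.5 and 12.5 CPM in shARID1A.4, and 10.6, 12.1 and 11.7 CPM in Control. Control lay between hairpins that did not overlap, and the difference was -0.81 (edgeR FDR 3.11e-08). Within intron 3 (chr6:50830090-50830327) the levels were 1.04, 0.812 and 1.48 CPM against 3.07, 3.42 and 3.38 CPM, with a difference of -1.57 ± 0.20 (edgeR FDR 2.69e-09) and -2.00 in ARID1B-silenced cells (4.89e-09). The combinations themselves differed there by -1.11, with means of 1.16 CPM in shARID1A/B.2.3 and 2.53 CPM in shARID1A/B.4.2. Subtracting the ARID1B hairpin difference of 0.895 supplied the rest. A distal site 114232 bases downstream of the start (chr6:50935184-50937328) held 8.38, 8.41 and 8.94 CPM in shARID1A.2, 19.3, 18.8 and 19.1 in shARID1A.4 and 19.5, 23.6 and 20.3 in Control. At this distal site shARID1A.2 lay far below Control, as did the combinations (4.89 to 8.63 CPM) and, less so, the ARID1B hairpins (11.5 to 15.4 CPM), whereas shARID1A.4 was not called against Control (edgeR FDR 0.393). The site differed by -1.15 ± 0.11 against shARID1A.4 (edgeR FDR 1.09e-14) and by -0.87 in ARID1B-silenced cells (8.52e-05). The PHOX2 pair printed above lies in another of its lower sites, 69267 bases downstream.

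The site over the exon of SOX11, a SOX family factor of developing neurons, held 53.4, 51.3 and 49.3 CPM in shARID1A.2, 70.1, 65.3 and 62.5 CPM in shARID1A.4 and 48.2, 52.3 and 47.3 CPM in Control. Here shARID1A.4 lay above Control and shARID1A.2 overlapped Control (-0.36, edgeR FDR 0.00131). GATA3, a zinc finger factor of sympathetic neurons, had 4 of 18 sites lower. Its strongest, inside intron 4 of TAF3 and 61171 bases upstream (chr10:7982900-7985704), held 3.12, 3.13 and 3.01 CPM against 6.77, 7.53 and 6.83 CPM, with Control at 4.86, 4.19 and 6.09 CPM. Control again lay between the hairpins, which differed by -1.19 ± 0.14 (edgeR FDR 4.34e-10) and by -1.24 in ARID1B-silenced cells (4.82e-06). The combinations themselves differed by -0.96 at this site.

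INSM1, a zinc finger factor of neuroendocrine cells, had 4 of 46 sites lower, with 9.01, 6.46 and 7.91 CPM against 14.9, 13.3 and 12.8 CPM and Control at 17.4, 15.9 and 16.7 CPM at chr20:20340430-20342782 (-0.82, edgeR FDR 5.69e-08). The transcriptional cofactor gene LMO1 had an upstream site at 11.8, 10.2 and 9.70 CPM against 17.7, 17.4 and 16.6 CPM, both below Control at 22.5, 19.8 and 21.5 CPM (-0.70, edgeR FDR 6.92e-07). At the INSM1 and LMO1 sites shARID1A.2 was the lower of hairpins whose libraries all lay below Control, although shARID1A.4 against Control did not pass the threshold (edgeR FDR 0.0714 and 0.0368). DACH1 had sites in both directions, from -1.50 to 1.32, and EYA1 had 5 lower and 2 higher of 54. The site of HAND2, 23 sites near ISL1, 14 near PHOX2A and 29 near MYCN held 0 calls by edgeR or DESeq2, with 0, 3, 4 and 3 of them at an unadjusted edgeR p under 0.05.

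Genes of catecholamine synthesis and storage, the output of sympathetic cells, had 6 lower and 6 higher of 225 sites (2.67% each, against 1.84% and 0.737% of all sites). The list had 3 lower without shARID1A.4 replicate 1, and 4 lower and 8 higher under promoter-based TMM. A site 8914 bases upstream of DBH, which makes noradrenaline from dopamine, held 2.63, 2.60 and 2.02 CPM in shARID1A.2, 0.778, 0.739 and 0.751 CPM in shARID1A.4 and 3.13, 2.14 and 3.41 CPM in Control. Here shARID1A.2 overlapped Control and shARID1A.4 did not (1.67 ± 0.25, edgeR FDR 7.94e-07), with 1.32 in ARID1B-silenced cells (0.001). A site upstream of MAOA, the monoamine oxidase A gene, was higher in shARID1A.2 by 1.86 (edgeR FDR 3.35e-08), with Control between the hairpins. A site 264484 bases from the granule protein gene SCG2 (chr2:223337378-223338653) held 5.07, 5 and 4.72 CPM against 16.0, 16.1 and 16.8 CPM, with Control at 7.55, 8.84 and 8.66 CPM, a difference of -1.72 ± 0.12 (edgeR FDR 1.87e-21).

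Receptors and guidance genes varied without a shared direction. Neurotrophic receptor kinases and co-receptors had 10 lower and 6 higher of 565 sites (1.77% and 1.06%), with 1 to 8 lower as each library was left out and 5 lower and 9 higher under promoter-based TMM. A site upstream of the receptor gene PDGFRA was higher in shARID1A.2, at 3.71, 4.02 and 4.45 CPM against 1.65, 1.62 and 1.19 CPM (1.43, edgeR FDR 1.05e-08, and 1.86 in ARID1B-silenced cells). ERBB4 intron 1 held the largest fall of this list (-1.63, edgeR FDR 0.000177). Axon guidance genes had 40 lower and 26 higher of 2356 sites (1.70% and 1.10%, against 1.84% and 0.737% of all sites), with 7 lower near the repellent SEMA3A and 5 higher near each of EFNA5 and the semaphorin co-receptor NRP2. The higher count was 13 to 19 as each library was left out, and promoter-based TMM gave 33 lower and 35 higher. In intron 1 of EFNA5, an ephrin ligand gene, 17.2, 16.5 and 16.3 CPM in shARID1A.2 and 16.6, 15.2 and 15.6 CPM in Control stood above 7.37, 7.72 and 6.89 CPM in shARID1A.4 (1.18 ± 0.11, edgeR FDR 9.54e-15). Glutamate and GABA receptor genes had 15 lower and 8 higher of 1696 sites (0.884% and 0.472%), led by GRIK3 and GRIN2B (-0.96 and 1.53). The lower count was 9 without shARID1A.4 replicate 1.

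Among adhesion genes, classical cadherins had 24 lower and 4 higher of 860 sites (2.79% and 0.465%, against 1.84% and 0.737% of all sites). The counts were 17 to 21 lower and 0 or 1 higher as each library was left out. The list as a whole did not lean lower, with a median of 0.06, and 0.14 in ARID1B-silenced cells. At an unadjusted edgeR p under 0.05, 78 sites were lower and 73 higher. In ARID1B-silenced cells 2 of the 24 lower sites and 1 of the 4 higher sites were called in the same direction. A site in the last exon of CDH6 (chr5:31327442-31328919) held 3.58, 4.02 and 4.09 CPM in shARID1A.2, 13.4, 13.4 and 15.5 CPM in shARID1A.4 and 5.20, 6.78 and 5.17 CPM in Control. Control was nearer to shARID1A.2, and the hairpins differed by -1.85 ± 0.12 (edgeR FDR 1.94e-21) and by -1.28 in ARID1B-silenced cells (4.24e-08). Integrins, the receptors for extracellular matrix, had 8 lower and 6 higher of 265 sites (3.02% and 2.26%), of which 5 lower were near ITGA1 and 3 higher near ITGB6. In intron 4 of ITGA9 (chr3:37492215-37494532) 5.07, 4.75 and 4.76 CPM in shARID1A.2 stood against 10.9, 11.6 and 11.5 CPM in shARID1A.4 and 11.0, 8.75 and 10.1 CPM in Control (-1.22, edgeR FDR 7.85e-13). Lower integrin sites numbered 4 without shARID1A.2 replicate 2 or 3 or without shARID1A.4 replicate 1 or 2, and higher ones 3 without shARID1A.4 replicate 2. Promoter-based TMM gave 4 lower and 8 higher integrin sites, and total counts 5 and 8. Collagens, laminins and matrix glycoproteins had 7 lower and 11 higher of 1058 sites (0.662% and 1.04%). The largest fall of the list was 169999 bases upstream of the laminin gene LAMA2 (-1.48, edgeR FDR 2.07e-17) and the largest rise in intron 1 of the collagen gene COL6A3 (1.79, edgeR FDR 2.43e-05). Lower matrix sites numbered 4 without shARID1A.4 replicate 2.

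Mesenchymal neuroblastoma regulators had 10 lower sites and 1 higher site of 378 (2.65% and 0.265%, against 1.84% and 0.737% of all sites). Of the 10 lower sites, 7 were near TWIST1, a bHLH factor of mesenchyme, which had 29 tested sites. The site with its largest fall held 1.13, 1.06 and 1.26 CPM against 1.79, 2.77 and 2.07 CPM (-0.95, edgeR FDR 0.00144, and -1.39 in ARID1B-silenced cells). This count was the least stable of the regulator lists, at 3 to 6 lower as each library was left out and 2 lower and 2 higher under promoter-based TMM. TEAD and YAP genes, which carry the Hippo pathway's output, had 8 lower and 2 higher of 297 sites (2.69% and 0.673%), with 4 of the 8 near TEAD1. AP-1 genes had 1 lower and 1 higher of 140, near MAF (-0.72) and JDP2, where intron 2 held 12.7, 9.83 and 11.8 CPM against 5.04, 4.21 and 4.38 CPM (1.33, edgeR FDR 2.71e-13). The MAF call was lost without shARID1A.2 replicate 2 or 3 or shARID1A.4 replicate 1. WNT pathway genes had 13 lower and 6 higher of 936 (1.39% and 0.641%, both below the shares of all sites). An intron of LGR5, a receptor for R-spondins, held 1.09, 1.30 and 1.48 CPM in shARID1A.2 and 3.39, 2.54 and 3.63 CPM in shARID1A.4, which overlapped Control at 3.18, 3.99 and 3.85 CPM (-1.29, edgeR FDR 8.12e-07). Lower WNT sites numbered 7 without shARID1A.2 replicate 3 and 6 without shARID1A.4 replicate 1, and higher ones 3 without shARID1A.2 replicate 3 or shARID1A.4 replicate 2 and 2 without shARID1A.4 replicate 1 or 3. TGF-beta and BMP pathway genes had 14 lower and 4 higher of 1147 (1.22% and 0.349%, also below those shares). Of the 14 lower sites, 5 were near BMP5, and the list had 8 lower and 1 higher without shARID1A.4 replicate 2.

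Gene groups that respond to double-stranded RNA or process hairpins held 8 and 4 called sites. Interferon and double-stranded RNA response genes had 6 lower and 2 higher of 207 sites (2.90% and 0.966%, against 1.84% and 0.737% of all sites), but 3 lower and 4 higher under promoter-based TMM or abundance offsets and 4 each with total counts. Lower sites lay near DDX58, IFIT2, IRF1, IRF7, IRF9 and ISG20, 1 each, with -0.79 at IRF7 (edgeR FDR 4.31e-05) and -0.58 at IFIT2 (2.39e-05). One of the higher sites was near the receptor TLR3 (0.49, edgeR FDR 0.00769), a call lost without any 1 of the 6 libraries. Lower sites of this list numbered 1 to 3 without shARID1A.2 replicate 2 or 3 or without shARID1A.4 replicate 1 or 2, and 4 without shARID1A.4 replicate 3. Small RNA processing genes had 4 lower of 112 sites (3.57%), 2 near DROSHA, the nuclease that crops hairpins (-0.84 at the larger, edgeR FDR 0.000244), and 2 near AGO2 (-0.60, 0.00735), and the count was 1 to 3 as each library was left out and 2 under total counts, promoter-based TMM or abundance offsets. The AGO2 call was lost under these scalings, with DESeq2, without the filter and without each library except shARID1A.4 replicate 2. In the other direction 0 sites were called by the main edgeR fit or DESeq2, 2 had an unadjusted edgeR p under 0.05, and 1 was called with offsets that follow GC content.

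Of all calls 71.4% were lower, and 50.9% under promoter-based TMM, which bears on the direction of the p53 and G1 phase lists. Among p53 target genes 8 of 133 sites were lower (6.02%) and 1 was higher (0.752%), against 1.84% and 0.737% of all tested sites. The higher site was the MDM2 site described above. Lower sites lay near AEN, DDB2, GADD45A, MDM2, SESN1 and TP53I3, with 3 near GADD45A, a stress response gene, where the largest fall was 1.22, 1.46 and 1.26 CPM against 2.93, 3.37 and 3.88 CPM (-1.35, edgeR FDR 1.45e-07). The count was 5 without shARID1A.2 replicate 3. In ARID1B-silenced cells the difference at this GADD45A site was -0.99 (FDR 0.0141). Genes of the G1 phase had 6 lower of 127 sites (4.72%), near CCND3, CDK6, CDKN2B and RBL2. In intron 1 of CDK6, a kinase that drives G1 exit, 5.30, 4.79 and 4.36 CPM in shARID1A.2 stood against 9.93, 10.3 and 8.52 CPM in shARID1A.4 and 10.8, 11.2 and 10.5 CPM in Control (-1.0 ± 0.13, edgeR FDR 3.15e-09). The G1 count fell to 1 without shARID1A.2 replicate 2 or shARID1A.4 replicate 2, to 2 without shARID1A.2 replicate 3 or shARID1A.4 replicate 1, to 2 with total counts, and to 1 under promoter-based TMM. In the other direction 0 G1 sites were called by the main edgeR fit or DESeq2, 4 had an unadjusted edgeR p under 0.05, and 1 was called under each of the other scalings. Replication-dependent histone genes had 0 calls at 20 sites by edgeR or DESeq2, with 0 of them at an unadjusted edgeR p under 0.05 and 3 higher with abundance offsets.

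BAF, PBAF and ncBAF subunit genes were called at background rates, 7 lower and 3 higher of 377 sites (1.86% and 0.796%, against 1.84% and 0.737% of all sites). The lower sites lay near BCL11A, BCL11B, BRD7, BRD9, DPF1, SMARCA2 and SS18L1, with -0.77 at DPF1 (edgeR FDR 0.00397), and the largest rise was in intron 1 of DPF3 (1.10, edgeR FDR 0.000512). The DPF1 call was lost under promoter-based TMM, with DESeq2 and without any 1 of 4 libraries, and the DPF3 call without shARID1A.4 replicate 1. Promoter-based TMM gave 2 lower and 3 higher sites. Lower sites numbered 2 to 4 as each library other than shARID1A.4 replicate 3 was left out. At the target gene itself, the ARID1A promoter (chr1:26695337-26696256) held 10.3, 6.90 and 8.94 CPM in shARID1A.2, 10.5, 9.20 and 8.14 CPM in shARID1A.4 and 7.99, 5.14 and 7.46 CPM in Control. The hairpins overlapped (-0.11 ± 0.13, edgeR FDR 0.781), and since an shRNA acts on the messenger RNA, accessibility of the promoter does not check the silencing. The first exon of ARID1B held 42.3 to 53.6 CPM and 43.6 to 48.6 CPM (0.07 ± 0.08, FDR 0.756).

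**Figure D5:**
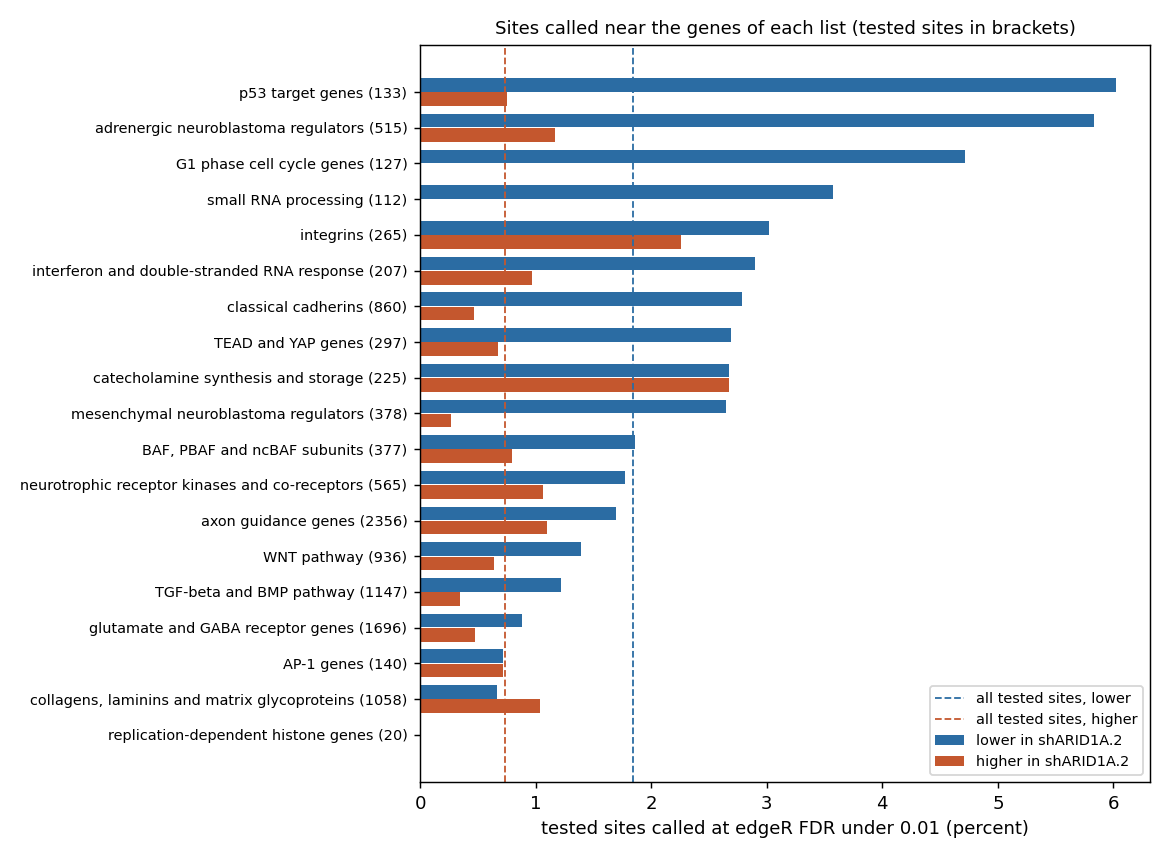
Percentage of tested sites near the genes of each list called lower (blue) or higher (orange) in shARID1A.2 at an edgeR FDR under 0.01, with the number of tested sites in brackets and dashed lines at the shares over all tested sites (1.84% and 0.737%). The p53 target and adrenergic regulator lists have the longest blue bars (6.02% and 5.83%), and catecholamine genes have the longest orange bar (2.67%).

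At promoters the direction of the hairpin difference rested on scaling. Of 12310 tested promoter sites 415 were lower (3.37%) and 45 higher (0.366%), with a median of -0.10, but promoter-based TMM gave 201 and 136, offsets that follow abundance gave 191 and 245, and offsets that follow GC content gave 271 and 121. Lower promoter sites numbered 721 without shARID1A.2 replicate 1, 119 and 152 without its replicates 2 and 3, and 107 and 200 without replicates 1 and 2 of shARID1A.4. Single promoters showed larger differences. A site annotated to the promoter of ARHGEF2, a guanine nucleotide exchange factor gene, but 12632 bases upstream of its listed start (chr1:155983195-155984195), held 1.49, 1.46 and 1.75 CPM in shARID1A.2, 6.09, 5.31 and 6.07 CPM in shARID1A.4 and 2.26, 1.31 and 1.84 CPM in Control (-1.89, edgeR FDR 2.22e-15). The site was also open in shARID1B.2, at 10.4 to 11.2 CPM, and in shARID1A/B.4.2, at 12.5 to 13.0 CPM, but not in shARID1B.3 (1.64 to 2.15 CPM) or shARID1A/B.2.3 (1.56 to 2.24 CPM). The next largest falls were at MAP2K3 (-1.22), LOC101930232 (-1.16), C1orf158 (-1.14) and the fatty acid receptor gene FFAR2 (-1.12). In the other direction the promoter of AKNAD1 differed by 1.89 and that of MC2R, the ACTH receptor gene, by 1.28, and both kept this in ARID1B-silenced cells (1.51 and 1.37, edgeR FDR 0.00446 and 0.00679). The PAMR1 promoter held 6.11, 5.32 and 5.70 CPM in shARID1A.2 and 2.33, 2.68 and 3.01 CPM in shARID1A.4, both below Control at 13.6, 13.1 and 14.4 CPM (1.11). The promoter of RAB40A, a RAS-like GTPase gene, held 8.33, 8.57 and 8.94 CPM against 4.03, 4.11 and 4.07 CPM and 8.13, 8.63 and 8.78 CPM in Control (1.08), with shARID1A.4 alone below the others.

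Some genes gathered several called sites. They were ranked by the number of called sites, which favours genes with many tested sites (1.84% of all sites were lower and 0.737% higher). MAB21L2 had 10 of 72 sites lower, TOX 9 of 53, AC006145.4 9 of 74, CADM1, a cell adhesion gene, 9 of 116, and RAPGEF2, a RAP exchange factor gene, 9 of 237. Medians over all their sites were -0.13 near MAB21L2, -0.21 near TOX, -0.02 near AC006145.4 and -0.10 near CADM1. Near RAPGEF2 the median was 0.09, with 138 of 237 sites above 0. RP11-267N12.1 had the largest share, with 8 of 24 sites lower (33.3%) and 21 of 24 below 0 over 122.6 kb. Its median of -0.43 came with medians of -0.38 for shARID1A.2 and 0.06 for shARID1A.4 against Control. The strongest site near RAPGEF2 (chr4:159708562-159709461) held 2.35, 2.48 and 2.78 CPM in shARID1A.2, 12.6, 11.2 and 10.5 CPM in shARID1A.4 and 3.51, 3.90 and 4.65 CPM in Control, so that it stood above Control with hairpin 4 (-2.18, edgeR FDR 1.50e-22). In the other direction ETS1, the ETS family transcription factor, had 7 of 131 sites higher and 1 lower. PRICKLE2, a planar polarity gene, had 5 of 13 sites higher (38.5%), and LOC102724763 had 6 of 50. LOC102723784 had 5 of 39 higher and 37 of 39 above 0 over 289.8 kb, with medians of -0.06 for shARID1A.2 and -0.65 for shARID1A.4 against Control. MIR548X2 (33 sites) and RP11-664H17.1 (36 sites) had 5 higher sites each. Medians over all sites were 0.07 near ETS1, 0.04 near LOC102724763, 0.39 near PRICKLE2, 0.49 near LOC102723784 and 0.13 near MIR548X2. Near RP11-664H17.1 the median was -0.02, with 20 of 36 sites below 0. In ARID1B-silenced cells 4 sites each were higher near LOC102723784, LOC102724763 and ETS1, 3 each near PRICKLE2 and RP11-664H17.1 and 2 near MIR548X2, with 1 lower each near LOC102724763 and ETS1. The genes with most lower sites had 3 lower and 4 higher sites near MAB21L2, 3 and 2 near RAPGEF2, 2 and 0 near AC006145.4, 1 and 0 near TOX and RP11-267N12.1, and 0 and 1 near CADM1.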

How the data were processed

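Raw read counts per consensus site were deposited by the authors for 21 libraries in 7 groups of 3, with a HOMER-style annotation of nearest gene, distance and class. Per the labels, reads were aligned to GRCh38 and DESeq2 was used. For the aligner, the peak caller and any Tn5 shift: not given in the sources used here. Deposited normalized values, fold changes and p-values of the authors were not used. Counts of the groups were joined by site identifier.

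All 21 libraries entered 1 model in edgeR 4.0.16 (R 4.3.3) with TMM scaling, filterByExpr (minimum count 10), the quasi-likelihood test and Benjamini-Hochberg adjustment over all tested sites, with calls at FDR under 0.01. The filter removed 10871 sites, and the common biological coefficient of variation was 0.0817. SE was derived from the F statistic. The procedure was tested on simulated data. Same-numbered libraries of the hairpins deviated with correlations of 0.109, 0.071 and 0.015, so replicate numbers were not taken as pairs. Replicates of shARID1A.2 differed by 1.25 to 1.62 times and those of shARID1A.4 by 1.11 to 1.19 times counting noise (chi-square per degree of freedom), so all were kept. Depth of 16140029 to 44472230 reads in sites limits precision at sites under about 1 CPM. Alternatives were other scalings (total counts, promoter TMM, loess offsets by abundance or GC), DESeq2 1.42.0, other filters and thresholds, only the compared groups, a replicate block and leaving out each library. Python 3.11.15 with pandas 2.3.3 and numpy 2.4.6 handled tables and motifs.

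The members, the 19 gene lists and the tests were chosen with earlier results of these data known. Named were the 8 sites with the largest fall and rise (mean of at least 1 CPM, no overlap between hairpins, 1 per gene), 5 promoters and 6 genes each way, the ARID1A and ARID1B sites, and up to 2 sites per list and direction, and adrenergic sites were described further. The motif examples were chosen after their values were seen. Some named genes and 1 sequence are not reported here.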

Additional observations from a re-analysis of the deposited data

Results flagged for a closer look

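The difference between ARID1A hairpins 2 and 4 was compared with the same difference in ARID1B-silenced cells by an interaction term in the edgeR model, and 361 sites (0.101%) departed from equality at an FDR under 0.01. Among the named sites, 6 did so. The departure was -2.89 at the CRISPLD1 site (edgeR FDR 3.52e-05), where shARID1A.2 held 0.453 to 0.853 CPM and shARID1A.4 held 4.07 to 4.81 CPM, but shARID1A/B.2.3 held 0.615 to 0.657 CPM and shARID1A/B.4.2 held 1.11 to 1.43 CPM. It was -1.48 at the ARHGEF2 site (FDR 0.00128), which was also open in shARID1B.2. It was -1.36 at the LOC102724139 site (0.00128), -1.20 at the SCG2 site (0.000876), -1.13 at the RAPGEF2 site (0.0097) and -1.03 at the ITGA9 site (0.00636). At all 6 named sites the difference was more negative with the single hairpins. These sites were named for their falls between the single hairpins, whose libraries also enter the interaction term. Their shared direction thus follows in part from the choice of sites and tests nothing. The count of 361 fell to 142 without shARID1A/B.4.2 replicate 1 and to between 163 and 236 without any of 12 other libraries, namely shARID1A.2 replicates 2 and 3, shARID1A.4 replicates 1 and 2, shARID1B.2 replicates 1 and 3, shARID1B.3 replicates 1 and 2, shARID1A/B.2.3 replicates 2 and 3 and shARID1A/B.4.2 replicates 2 and 3.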

How the results depend on the processing

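Of the 9188 sites, a replicate block with only the compared groups gave 14610 (10025 lower and 4585 higher), an FDR under 0.05 gave 15737 (10695 and 5042), and a log2 difference of at least 1 gave 2788 (1887 and 901). The replicate block in the model of all groups gave 7463 lower and 2914 higher sites. Promoter-based TMM gave 4062 lower sites. Leaving out each library gave 5693 to 8144 sites, 3952 to 6247 lower and 1631 to 2201 higher. In ARID1B-silenced cells the 2167 lower sites became 473 (promoter TMM), 3688 (replicate block), 6875 (FDR under 0.05), 928 (log2 of at least 1) and 1183 to 3302 (each library left out), and the 1633 higher sites became 2820 (total counts), 5748, 2795 (abundance offsets), 4180, 978 and 1028 to 1514. The 361 sites whose difference changed with ARID1B silencing became 601 (total counts), 1164 (promoter TMM), 796 (abundance offsets), 584 (minimum count 30), 960 (FDR under 0.05) and 142 to 333.

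The median in ARID1B-silenced cells at lower sites, -0.42, became -0.34 with total counts or abundance offsets (-0.339 and -0.341), -0.175 with promoter TMM, -0.617 with a log2 difference of at least 1, and -0.477 to -0.400 with each library left out. At higher sites 0.61 became 0.782 (promoter TMM), 0.558 (abundance offsets), 0.482 (GC offsets), 0.544 (only the compared groups), 0.481 (those with the replicate block), 0.470 (FDR under 0.05), 0.800 (log2 of at least 1) and 0.553 to 0.690. The hairpin difference at sites closed by the combinations, -0.02, became 0.052 (total counts), 0.075 (promoter TMM), 0.017 (abundance offsets), 0.049 (log2 of at least 1) and -0.038 to 0.005, and at opened sites it was -0.169 to -0.034 with each library left out. The uncalled ARID1A promoter difference changed sign with abundance offsets (0.00), GC offsets (0.08) and without shARID1A.2 replicate 2 (0.045), ranging from -0.244 to 0.045 with each library left out, and that of ARID1B without shARID1A.2 replicate 1 (-0.001 to 0.172). Of 100 called named sites, promoter TMM lost 8, DESeq2 5, total counts and abundance offsets 3 each, no filter 2, and leaving out libraries lost 33 at least once, with 0 reversed. The cause of these changes was not tested. Same-numbered libraries of the hairpins did not correlate by over 0.1 in every pair, so the block is given for counts only. Those of Control and shARID1A/B.2.3 did (0.193, 0.506 and 0.208), and those of Control and shARID1A/B.4.2 did not (0.0036, 0.0842 and 0.0588). With a replicate block, chosen for this count after seeing the data, the 36610 closed and 12247 opened sites became 37437 and 13764, and 38363 and 16629 with only the compared groups. Sites with few reads had little chance of being called.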
